A study of Mus musculus with 4 samples.

Results

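The Clcn5 miRNA cluster is a run of 5 microRNA (miRNA) genes, Mir532, Mir188, Mir362, Mir501 and Mir500, inside Clcn5 on the mouse X chromosome. It was followed in lung through the 7 assays, of 750 miRNA assays measured, whose miRBase name is miR-188-5p, miR-362-3p, miR-362-5p, miR-500, miR-501-3p, miR-532-3p or miR-532-5p. Quantitative PCR was run on right lungs from 4 groups of mice: adults of 2 months kept in hyperoxia (95% oxygen), adults of 2 months kept in room air, newborns kept in hyperoxia and newborns kept in room air. Each exposure lasted 72 h, and newborns were 3 days old when lungs were taken. Newborns entered the chamber within their first day of life, and their nursing mothers changed between both atmospheres every day. Pulmonary arteries of all groups were flushed with saline. Strain, sex and the number of mice per library are not given in the labels. With 1 library for each group, no difference between 2 libraries could be checked against replicates.

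MiRNAs are cut as short hairpins from longer transcripts, and each hairpin can yield a mature strand from its 5′ arm and another from its 3′ arm. The mature strand guides Argonaute to messenger RNAs mainly through its seed, bases 2 to 8. Genes of a miRNA cluster lie on 1 primary transcript, while the level of each mature strand also depends on processing, strand choice and decay. The host gene, Clcn5, encodes the chloride and proton exchanger ClC-5 of endosomes, which is mutated in human Dent disease.

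In the RefSeq annotation (GRCm38.p6), Clcn5 occupies chrX:7153810-7319358 on the minus strand. All 5 hairpins lie within its bounds on the same strand and span 10.8 kb. In the direction of transcription the order is Mir532 (chrX:7248402-7248497), Mir188 (chrX:7247989-7248056), Mir362 (chrX:7241982-7242046), Mir501 (chrX:7241243-7241351) and Mir500 (chrX:7237683-7237774). Mir532 and Mir188 are 345 bases apart, Mir362 begins 5942 bases further on, Mir501 follows after 630 bases and Mir500 after another 3468. Of the 2 annotated Clcn5 starts, the one at position 7319358 lies upstream of the cluster, and the one at 7188714 lies downstream of all 5 hairpins.

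The mature sequences show which members are near copies and which share a seed. They are given 5′ to 3′ from RefSeq, for 6 of the 7 members and for strands of the same hairpins that bear on them, with the seed in capitals:
mmu-miR-532-3p: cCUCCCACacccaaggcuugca
mmu-miR-188-5p: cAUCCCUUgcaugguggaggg
mmu-miR-188-3p: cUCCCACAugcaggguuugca
mmu-miR-362-5p: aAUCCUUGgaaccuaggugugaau
mmu-miR-362-3p: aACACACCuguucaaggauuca
mmu-miR-501-5p: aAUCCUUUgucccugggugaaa
mmu-miR-501-3p: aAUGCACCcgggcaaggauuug
mmu-miR-500-5p: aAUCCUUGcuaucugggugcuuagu
mmu-miR-500-3p: aAUGCACCugggcaaggguuca

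The file lists miR-500 without an arm, so both strands are shown for Mir500. miR-500-3p and miR-501-3p have the same seed, which no other of 1679 RefSeq mature mouse miRNAs holds. They match at 18 of 22 bases. Counted from the 5′ end of miR-500-3p, the differences from it to miR-501-3p are U9C, G18A, C21U and A22G. miR-362-5p and miR-500-5p share another seed, also held by these 2 alone, and miR-362-3p shares its seed with miR-329-3p, encoded outside the cluster. miR-188-5p shares its seed with miR-7061-3p. miR-188-3p and miR-532-3p hold a common run of 8 bases, which starts at base 1 in the first and base 2 in the second, so their seeds are offset by a base.

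Levels are log2 values against the small nucleolar RNA snoRNA202 read on the same PCR card (2 per library), with higher values for more RNA. An assay counted as detected at a threshold cycle (Ct) of 35 or below, and 468, 468, 507 and 477 miRNA assays were detected in adult hyperoxia, adult room air, neonatal hyperoxia and neonatal room air. From 4 control RNAs read on both cards, the technical SD of a difference between libraries was 0.95 between the ages in hyperoxia and 0.65 between them in room air, and 0.33 between the adult and 0.26 between the neonatal libraries. These SDs leave out variation between mice. miRNAs of lung epithelium (5 of 5 matched), endothelium (1 of 1) and smooth muscle (2 of 2) were detected in every library, while the liver miRNA miR-122 had a Ct between 27.6 and 36.0. The miR-532 wells lie in row L of the first card, whose Ct in the adult room air library followed the other 3 libraries poorly (r = 0.302 across 24 wells, against 0.769 or more for every other row and library). Of 12 miRNA assays of that row detected in the other 3 libraries, 8 had a Ct of 40 in adult room air, both miR-532 assays among them. No adult room air value is used for miR-532.

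miR-532, the first hairpin of the run, was read early on both arms. In human melanoma cells miR-532-5p represses the transcription factor RUNX3. The level of miR-532-5p was -6.30 in adult hyperoxia, -5.61 in neonatal hyperoxia and -6.18 in neonatal room air. miR-532-3p, which represses the apoptosis inhibitor ARC in mouse heart muscle cells, was at -6.93 in adult hyperoxia, -5.92 in neonatal hyperoxia and -6.32 in neonatal room air. On the snoRNA202 scale, and without adult room air, neonatal hyperoxia was the high library for both arms and adult hyperoxia the low one. For the 5p arm adult hyperoxia lay close to neonatal room air. Adult minus neonatal hyperoxia lay above 0 under 4 of 6 references for the 5p arm and 3 of 6 for the 3p arm. The arms moved by similar amounts. On snoRNA202 adult minus neonatal hyperoxia was -0.69 for the 5p arm and -1.01 for the 3p arm, and neonatal hyperoxia minus room air was 0.57 and 0.40. An assay named for rat miR-532-5p had a Ct of 40 in all 4 libraries.

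miR-188-5p comes from the hairpin next to Mir532. In mouse bone marrow it is known to steer stromal cells from bone formation toward fat with age. Its level was -10.12 in adult hyperoxia, -9.74 in adult room air, -7.63 in neonatal hyperoxia and -8.01 in neonatal room air. Both adult libraries lay below both neonatal ones. Adult minus neonatal was -2.49 log2 in hyperoxia (5.60-fold, 2.62 technical SDs) and -1.73 in room air (3.31-fold, 2.66 technical SDs). Hyperoxia minus room air was -0.38 log2 in adults (1.15 technical SDs) and 0.38 in newborns (1.48). The opposite strand, miR-188-3p, had a Ct of 40 in all 4 libraries. In bulk lung RNA, fewer cells that hold a miRNA and less of it per cell cannot be told apart.

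miR-362 was read on both arms, with the 5p assay on the second card and the 3p assay on the first. miR-362-5p represses the deubiquitinase CYLD in human liver cancer cells, and miR-362-3p slows the cell cycle in human colorectal cancer cells. The level of miR-362-5p was -12.61 in adult hyperoxia, -12.35 in adult room air, -10.54 in neonatal hyperoxia and -10.88 in neonatal room air. Both adult libraries were low for this arm. The level of miR-362-3p was -10.88 in adult hyperoxia, -10.39 in adult room air, -10.65 in neonatal hyperoxia and -11.17 in neonatal room air. The ages overlapped for the 3p arm, whose highest library was adult room air and whose lowest was neonatal room air.

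miR-501 is known from mouse muscle, where activated satellite cells induce it, and miR-501-3p represses the glutamate receptor subunit Gria1 in rodent neurons. The level of miR-501-3p was -13.79 in adult hyperoxia, -14.17 in adult room air, -11.16 in neonatal hyperoxia and -12.92 in neonatal room air. Neonatal hyperoxia stood far above the other 3 libraries, and both adult libraries lay lowest. The 5p strand of this hairpin had a Ct of 40 in all 4 libraries. miR-500, which is raised in human liver cancer, was at -11.66 in adult hyperoxia, -11.59 in adult room air, -11.05 in neonatal hyperoxia and -11.48 in neonatal room air. Its 4 libraries spanned the narrowest range of the 5 members with 4 values, and its adult libraries were 0.22 technical SDs apart. The tables used here hold 0 assays of miR-502 or miR-660, which belong to this cluster in human.

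**Figure D1:**
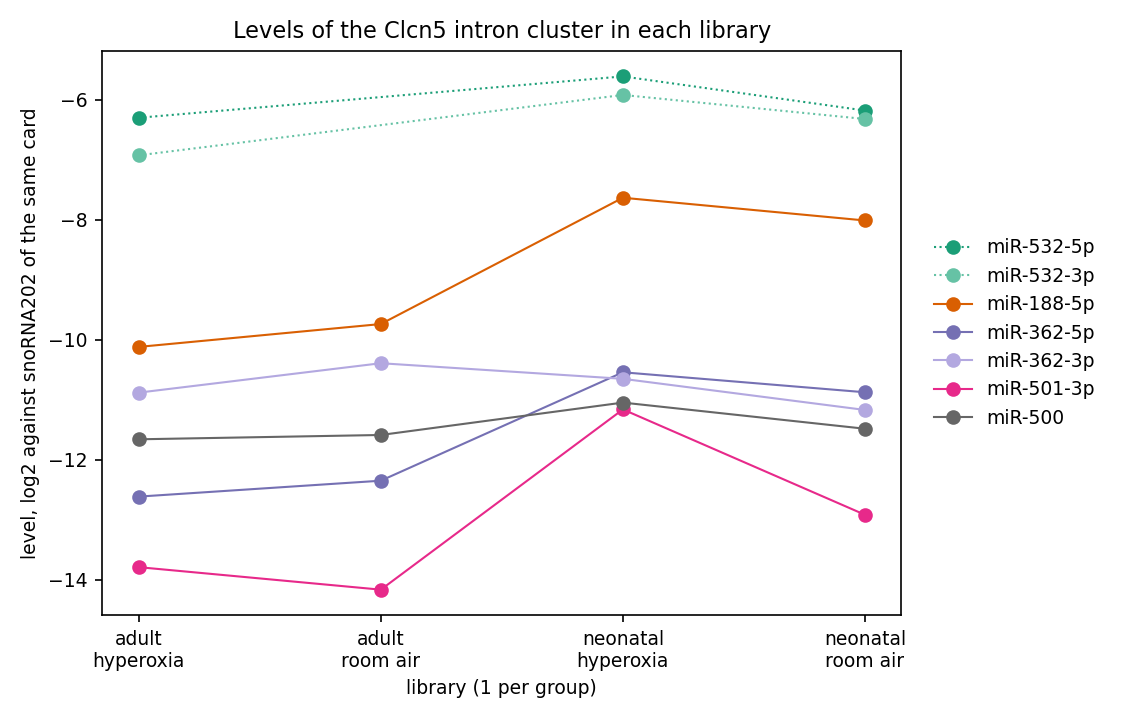
Level of each member (y axis, log2 against snoRNA202 of the same card) in the 4 libraries (x axis, 1 library per group); lines join values of 1 assay and are dotted for the miR-532 arms, which have no adult room air value. miR-188-5p, miR-362-5p and miR-501-3p lie lower in both adult libraries, and miR-501-3p peaks in neonatal hyperoxia at -11.16.

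Adult lung held less miR-188-5p, miR-362-5p and miR-501-3p than newborn lung on the snoRNA202 scale, while miR-362-3p, miR-500 and miR-532-5p were within 2-fold. With U6 as the reference miR-188-5p and miR-501-3p turned to higher in adults. Between the hyperoxia libraries 4 of 7 members were at least 2-fold (1 log2 unit) lower and 0 higher in the adult, beside 49.3% of 450 assays lower and 10.9% higher. The 4 were miR-501-3p (-2.63), miR-188-5p (-2.49), miR-362-5p (-2.07) and miR-532-3p (-1.01), the last just past the bound. Between the room air libraries 3 of 5 members were at least 2-fold lower and 0 higher, beside 43.0% of 435 assays lower and 16.6% higher: miR-188-5p (-1.73), miR-362-5p (-1.47) and miR-501-3p (-1.25). The shares of the cluster are near those of all assays. The cluster median was -1.01 in hyperoxia and -1.25 in room air, beside -0.98 and -0.57 over all assays. miR-362-3p stood apart at -0.23 in hyperoxia and 0.78 in room air.

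miRNAs of other cell types differed with age on the same scale. A summed level is the log2 of the levels of its assays added on the linear scale. The assay with the highest level therefore weighs most in it. The summed level of 2 smooth muscle miRNAs was -0.61 in adult hyperoxia and -0.48 in adult room air, against -1.41 in neonatal hyperoxia and -1.70 in neonatal room air. The endothelial miR-126 was at 0.49 in adult hyperoxia and 0.56 in adult room air, against 0.10 in neonatal hyperoxia and -0.19 in neonatal room air. Both were higher in both adult libraries. The sum of 3 erythroid miRNAs was lower in each adult library than in the newborn library of the same atmosphere, at -5.38 in adult hyperoxia and -5.14 in adult room air. The epithelial sum, at -1.03 in adult hyperoxia and -0.19 in adult room air, overlapped between the ages, as did the leukocyte sum, at -0.25 in adult hyperoxia and 0.11 in adult room air, and the heart and skeletal muscle sum, at -4.80 in adult hyperoxia and -4.23 in adult room air. The part of these miRNAs in the age differences of the members was not tested.

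A limma model with additive terms for age and oxygen was used. Its standard errors (SE) and p-values rest on departure from additive effects, not on spread within a group. It was fitted to the 426 assays detected in every library, which include 5 members. Of these 5, miR-188-5p fell with age, with an age difference of -2.11 ± 0.36 log2 (SE; adjusted p = 0.0336 by limma with Benjamini-Hochberg adjustment), and so did miR-362-5p, at -1.77 ± 0.34 (limma, adjusted p = 0.0397). Over all assays 30.0% fell and 5.63% rose. miR-501-3p, at -1.94 ± 0.49, missed the threshold (limma, adjusted p = 0.0617), and miR-500 at -0.36 ± 0.33 and miR-362-3p at 0.27 ± 0.41 were not called (limma, adjusted p = 0.440 and 0.625). Both adult libraries lay below both neonatal ones for 4 of the 5 members, as they did for 55.6% of the 426 assays. The miR-532 arms have 3 libraries, which leave no residual degree of freedom and so no test.

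The direction with age depended on the reference RNA. U6, another small RNA used as a reference, itself differed between adult and neonatal hyperoxia against snoRNA202, by -2.98 log2 among first-card wells and -0.66 among those of the second card. With U6 as the reference, in hyperoxia 4 members were higher and 1 lower by 2-fold in the adult, and in room air 3 were higher and 0 lower. The fitted age differences of miR-188-5p and miR-501-3p then lay at 0.71 and 0.87, while that of miR-362-5p stayed at -0.88. With U6, and with card medians as the reference, the 2 calls were for miR-362-3p and miR-500, both higher in adults. Of 426 assays, 196 were called higher and 71 lower with U6, and 136 and 84 with card medians. Over the 9 settings of the fit the adjusted p ran between 0.0101 and 0.139 for miR-188-5p and between 0.0266 and 0.455 for miR-362-5p.

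**Figure D2:**
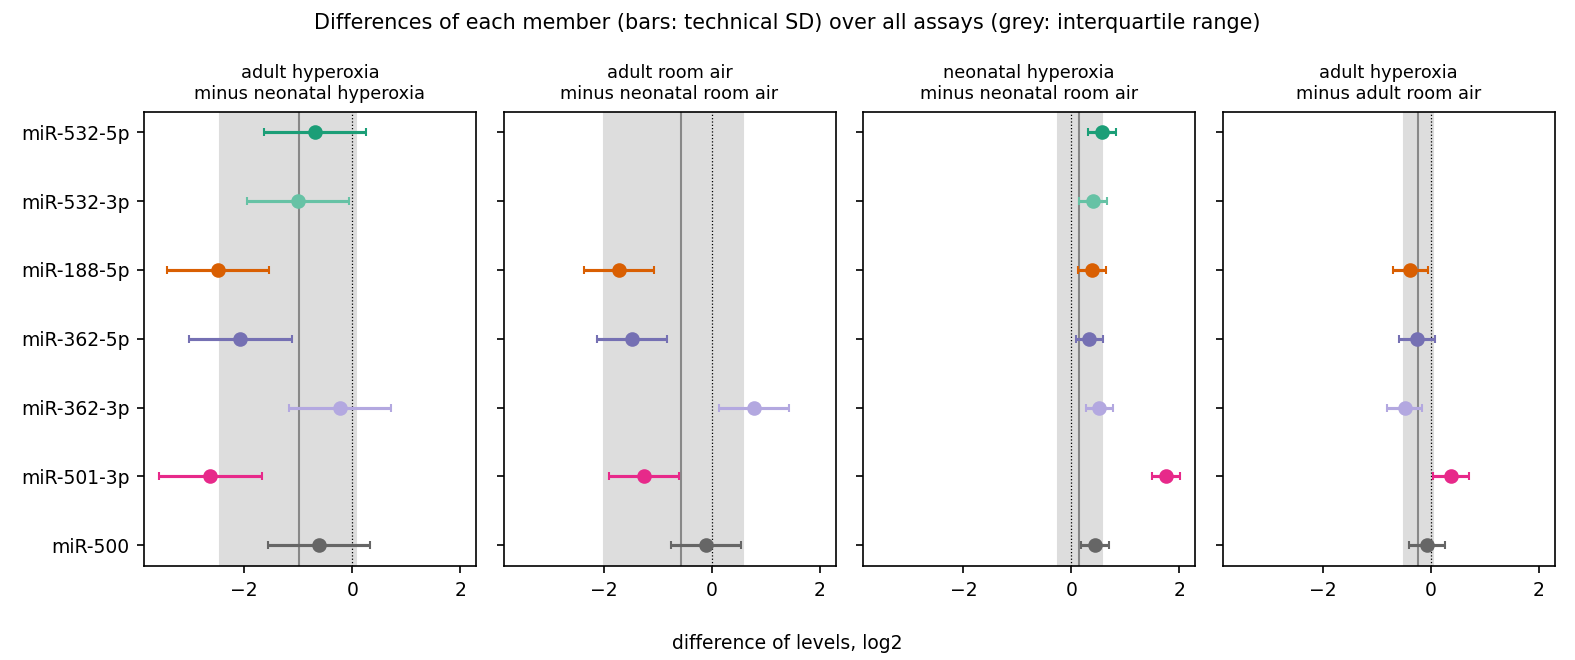
Difference of levels (x axis, log2) of each member (rows) in the 4 comparisons; bars are the technical SD from 4 control RNAs, the grey band is the interquartile range of all assays and the grey line their median. Members lie between -2.63 and 0.78 for age, and miR-501-3p at 1.76 is the member outside the band in newborn hyperoxia.

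The age differences of the members were unlike in these libraries. Between 2 assays of 1 card the gap does not depend on the reference, which cancels. It still holds the well error of both assays and the variation between mice. No SD was computed for such a gap. For an age difference of 1 assay the technical SD was 0.95 in hyperoxia and 0.65 in room air. miR-501-3p and miR-500 sit in adjacent wells, and they share a seed if the miR-500 assay, listed without an arm, reads the 3p strand. They differed in their age difference by -2.02 log2 in hyperoxia (4.05-fold) and by -1.14 in room air (2.21-fold). In both pairs of libraries the age difference of miR-501-3p lay below that of miR-500. Whether either was itself lower in adults depended on the reference. miR-501-3p against miR-362-3p, whose hairpins are 630 bases apart, gave -2.40 in hyperoxia and -2.03 in room air. Against the other arm of that hairpin, miR-362-5p, which sits on the other card, it gave -0.56 in hyperoxia and 0.23 in room air. That pair kept no direction across the 6 references, at -0.71 to 1.76 in hyperoxia and -0.80 to 1.75 in room air. For miR-188-5p, from the hairpin 345 bases past Mir532, the value in hyperoxia was -1.80 against miR-532-5p and -1.48 against miR-532-3p. The arms of 1 hairpin also parted for miR-362, where 5p against 3p was -1.84 in hyperoxia and -2.25 in room air, but not to that extent for miR-532, at 0.32. The miR-362 arms sit on different cards. The control RNAs read on both cards gave second-card minus first-card gaps of 0.43 to 2.32 in hyperoxia and -0.37 to 1.52 in room air. Their part in the gap of the miR-362 arms was not tested. That gap stayed below 0 under all 6 references tried, between -4.16 and -1.69 in hyperoxia and between -3.78 and -1.22 in room air. The members covered 2.40 log2 in hyperoxia and 2.51 in room air, about as wide as the interquartile range of all assays (2.51 and 2.57). The pairs were chosen by hairpin, seed and place, and have no test. They do not cover all members, and the neighbours Mir188 and Mir362 were not paired. Some first-card members outside these pairs lay close in hyperoxia, such as miR-501-3p (-2.63) and miR-188-5p (-2.49), or miR-532-5p (-0.69) and miR-500 (-0.61).

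**Figure D3:**
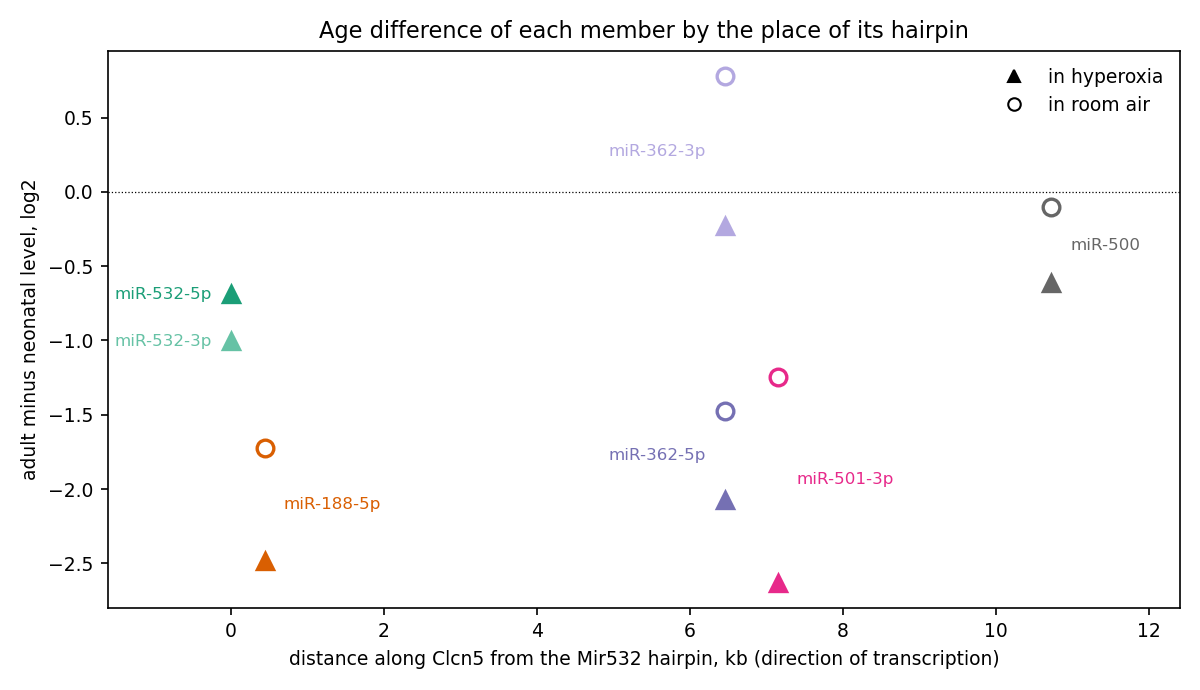
Adult minus neonatal level (y axis, log2) of each member against the distance of its hairpin from Mir532 along Clcn5 (x axis, kb); triangles are the hyperoxia libraries and open circles the room air libraries. miR-362-5p and miR-362-3p, from 1 hairpin, differ by -1.84 and -2.25 log2, and miR-188-5p and miR-501-3p lie below miR-532 and miR-500, their neighbours on either side of the run.

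In newborn lung the member with the greatest difference after hyperoxia was miR-501-3p. In neonatal hyperoxia against neonatal room air all 7 members lay above 0, as did 58.6% of all 469 assays, and 6 of the 7 lay within the interquartile range of those assays. The median was 0.44 log2 beside 0.13 over all assays. Of the 7, 1 was at least 2-fold higher, miR-501-3p, beside 13.6% of all assays, and 0 were lower, beside 8.53%. miR-501-3p differed by 1.76 log2, a 3.38-fold difference and 6.87 technical SDs, and 449 of 469 assays had a lower value. Its Ct was 24.7 in neonatal hyperoxia and 27.0 in neonatal room air. Whether the technical SD, taken from 4 control RNAs, holds at such Ct was not tested. The other 6 members lay between 0.33 (miR-362-5p) and 0.57 (miR-532-5p), or 1.30 and 2.23 technical SDs. Against miR-500 the difference of miR-501-3p was 1.32 log2 higher on the same card. Under all 6 references the 7 members stayed above 0, and miR-501-3p ranged between 1.55 and 1.76.

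Other cell types' miRNAs also differed between these newborn libraries. The summed level of 4 heart and skeletal muscle miRNAs, all detected in both, was -3.77 in neonatal hyperoxia and -5.002 in neonatal room air. That of 4 leukocyte miRNAs, also all detected, was -0.19 in hyperoxia and -0.56 in room air, and that of 5 epithelial miRNAs was 0.22 and -0.66 in the same order. The sum of 3 erythroid miRNAs was -5.11 in neonatal hyperoxia and -4.48 in neonatal room air. The liver miRNA miR-122 was at -14.07 in neonatal hyperoxia and was not detected in neonatal room air, where its Ct was 36.0. Sums for endothelium (0.10 in neonatal hyperoxia, -0.19 in neonatal room air) and smooth muscle (-1.41 in neonatal hyperoxia, -1.70 in neonatal room air) differed less. The part of these miRNAs in the difference of miR-501-3p was not tested.

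In adults hyperoxia went with small differences. Of 5 members 0 were 2-fold higher, beside 3.79% of all assays compared, and 0 lower, beside 8.26%. miR-501-3p was at 0.38 log2, miR-500 at -0.07, miR-362-5p at -0.27, miR-188-5p at -0.38 and miR-362-3p at -0.49, with a median of -0.27 beside -0.24 over all assays. Of the 5 members 1 lay above 0, miR-501-3p at 1.13 technical SDs, beside 28.6% of all assays. It lay 0.45 above miR-500 and 0.87 above miR-362-3p, whatever the reference. With each library centred on its mean over all assays, miR-501-3p reached 1.04, and miR-188-5p, miR-362-3p and miR-500 also lay above 0. Summed levels of cell type miRNAs also differed, given as adult hyperoxia and then adult room air. They were -1.03 and -0.19 for epithelium, -4.80 and -4.23 for heart and skeletal muscle, and -0.25 and 0.11 for leukocytes. Erythroid (-5.38 and -5.14), smooth muscle (-0.61 and -0.48), endothelial (0.49 and 0.56) and neuron miRNAs (-11.85 and -11.91) differed less. The liver miRNA miR-122 lay at -15.44 in adult hyperoxia and -19.38 in adult room air. The part of these miRNAs in the members' differences was not tested.

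Hyperoxia against room air lay below 0 in adults and above 0 in newborns for 4 of 5 members on the snoRNA202 scale, as it did for 41.5% of the 426 assays. With U6, with snoRNA135 added or with card medians this held for 3 of 5, without miR-500, and with each library centred on its mean for 1 of 5, miR-362-5p. Newborn minus adult values were 1.38 for miR-501-3p, 1.01 for miR-362-3p, 0.76 for miR-188-5p, 0.60 for miR-362-5p and 0.51 for miR-500, beside a median of 0.32 over all assays. These differences between ages were not tested. In the additive model 0 of 5 members and 0 of 426 assays were called for oxygen (limma, 0.0% in each direction, with 13 at an unadjusted p under 0.05). miR-501-3p had the largest fitted oxygen difference of the 5, at 1.07 ± 0.49 log2 (SE; limma, adjusted p = 0.988, and 0.801 to 0.990 over the 9 settings). Between pairs of libraries, the neonatal room air library enters both the room air age difference and the newborn oxygen difference of miR-501-3p. Its neonatal hyperoxia level, -11.16, enters both the hyperoxia age difference (-2.63) and the newborn oxygen difference (1.76). The same level enters the gaps between miR-501-3p and other members in hyperoxia. Those pairwise differences are not independent of each other.

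**Figure D4:**
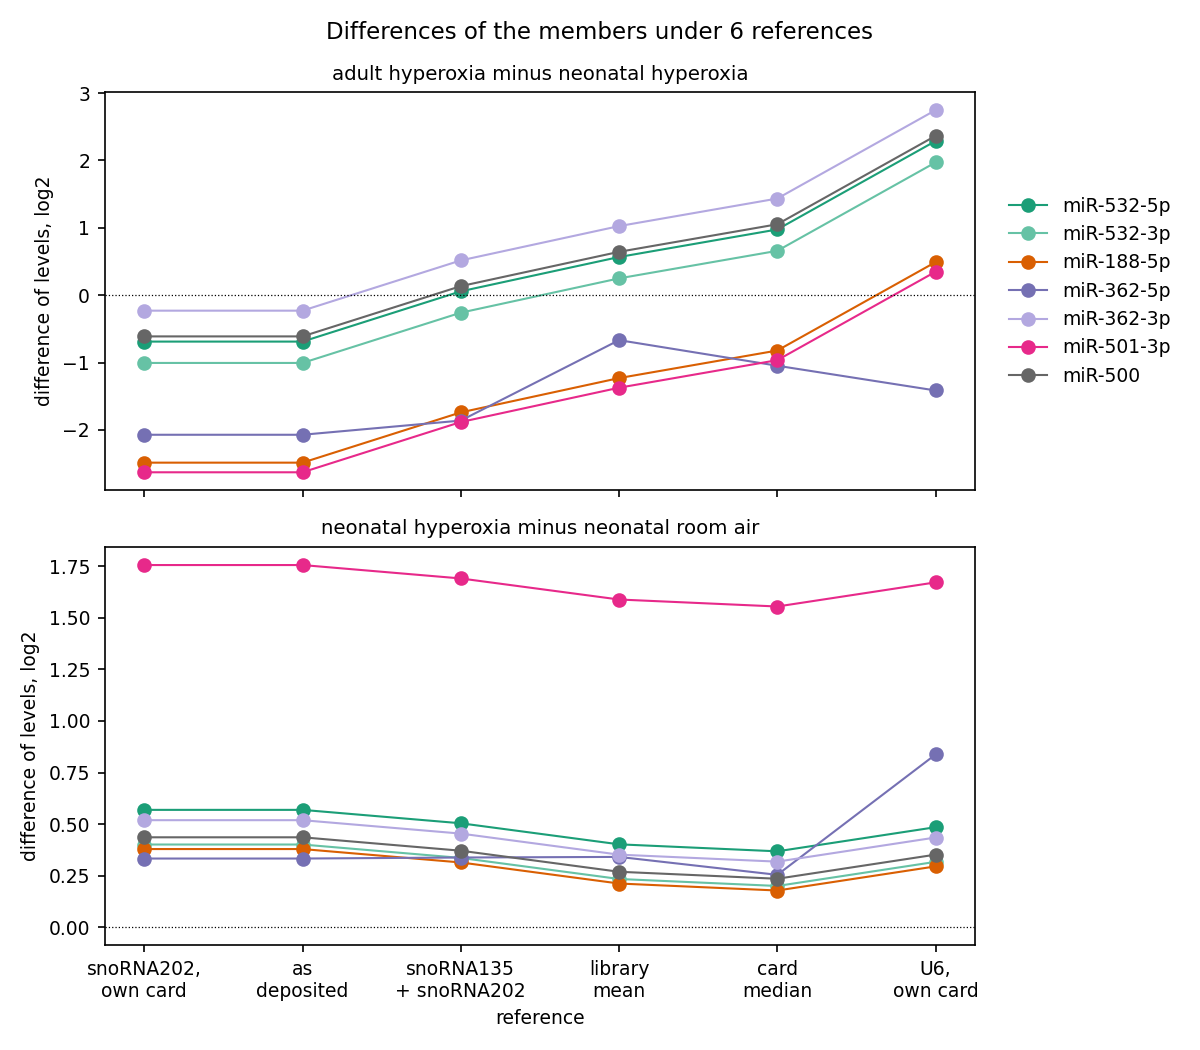
Difference of levels (y axis, log2) of each member under 6 references (x axis), for adult minus neonatal hyperoxia (upper panel) and neonatal hyperoxia minus room air (lower panel). First-card members shift together and keep their spacing; every member except miR-362-5p crosses 0 in the upper panel, and all 7 stay above 0 in the lower panel, with miR-501-3p between 1.55 and 1.76.

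On the snoRNA202 scale, other X-linked miRNAs had medians below 0 with age, as did the cluster and all assays. With U6 the age medians of the cluster and of all assays lay above 0 in both atmospheres. X-linked medians were not computed with another reference. Of those that RefSeq places on the X chromosome outside the run, 29 were measured in both hyperoxia libraries. There 16 were at least 2-fold lower and 3 higher in the adult, with a median of -1.33 log2. Over all 450 assays 49.3% were lower and 10.9% higher, with a median of -0.98. In room air 26 were measured, with 13 lower and 4 higher in the adult and a median of -0.92. Over all 435 assays 43.0% were lower and 16.6% higher, with a median of -0.57. For newborn hyperoxia against room air the X-linked median was 0.30, with 5 of 29 higher and 3 lower. Over all assays it was 0.13, with 13.6% higher and 8.53% lower. For adult hyperoxia the X-linked median was -0.15, with 0 of 27 higher and 2 lower. Over all assays it was -0.24, with 3.79% higher and 8.26% lower.

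Averaged over the 5 members with 4 values and centred over the libraries, the cluster lay at -0.67 in adult hyperoxia, -0.51 in adult room air, 0.93 in neonatal hyperoxia and 0.25 in neonatal room air. The nearest of 386 other assays by root mean square distance over these 4 values were miR-331-3p (0.0859 log2), miR-199a-3p (0.125), miR-340-5p (0.155), miR-20b (0.155) and miR-676 (0.162). All 5, picked as the nearest of the 386, lay closer to this mean than any member did, an order that this choice favours. The members themselves were 0.32 (miR-362-5p) to 0.74 (miR-362-3p) from it, which describes 4 libraries and has no test.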

How the data were processed

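Per the labels' protocols, Megaplex primers (A and B) served for reverse transcription of total lung RNA, which was preamplified and measured by TaqMan assays. The authors deposited Ct and delta Ct (Ct minus that of snoRNA202) for 768 wells on 2 cards per library, both in cycles, a log2 unit in which more RNA gives a lower value. The sources used here do not name the software or threshold behind Ct. Wells without a crossing are listed at 40. Levels were computed as the Ct of snoRNA202 on the well's own card minus the Ct of the well, since the deposited delta Ct of the adult room air library takes the first card's snoRNA202 for the second card. Assays differ in efficiency, so levels of different assays are not compared. The summed levels of cell type miRNAs pool assays without a correction for efficiency. PCR has no read depth, and the number of libraries limits precision.

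Groups come from sample titles. An assay entered a comparison where neither library's Ct exceeded 35. The technical SD is the root mean square gap between cards over U6, snoRNA135, U87 and Y1, divided by the square root of 2. The additive model used limma 3.58.1 (R 4.3.3; lmFit, eBayes, Benjamini-Hochberg over 426 assays, threshold 0.05) with 1 residual degree of freedom. It was tested on simulated data with additive effects and independent noise. Those data held no oxygen effect that differs with age and no card shift, so that test does not bear on such departures here. The model takes the oxygen effect as equal at both ages. Nothing says that libraries are single animals. The SEs and p-values rest on how far the libraries depart from additive effects, moderated by eBayes over assays. They hold no spread between samples of the same group. That departure may be technical, or an oxygen effect that differs with age.

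Members and lists were chosen with earlier results of these data known. Named are all members, other assays of the same genes, control RNAs, and the 5 assays nearest to the cluster's mean pattern at a Ct of 32 or below in all libraries. Names of 483 of 641 mouse-named assays matched a RefSeq miRNA gene.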

Additional observations from a re-analysis of the deposited data

Results flagged for a closer look

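On the snoRNA202 scale, hyperoxia against room air had opposite signs in the adult and the newborn pair for 4 of 5 members. Each of them lay below 0 in adults and above 0 in newborns, as did 41.5% of 426 assays. With 1 library per group none of these differences was tested. miR-362-3p lay at -0.49 log2 in adults and 0.52 in newborns, a newborn minus adult value of 1.01. miR-188-5p lay at -0.38 in adults and 0.38 in newborns (0.76), miR-362-5p at -0.27 in adults and 0.33 in newborns (0.60), and miR-500 at -0.07 in adults and 0.44 in newborns (0.51). On that scale, adult against neonatal lung had opposite signs for miR-362-3p alone of the 5 members. It lay at -0.23 in hyperoxia and 0.78 in room air, a hyperoxia minus room air value of -1.01 from the same 4 libraries. The share of all assays with opposite signs for age was not counted. Its age difference lay above 0 under 4 of 6 references in hyperoxia and under 6 of 6 in room air.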

How the results depend on the processing

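No paired analysis was possible because each group has 1 library, and leaving out a library would leave the additive model without residual degrees of freedom. The cluster median of adult against neonatal hyperoxia, -1.01 on snoRNA202, became 1.97 with U6, 0.25 with library mean centring and 0.66 with card medians, the same values as miR-532-3p, and -2.07 without the miR-532 arms. Members at least 2-fold apart in the hyperoxia pair, 0 higher and 4 lower, became 4 and 1 with U6 (5 in all) and 2 and 1 with card medians (3 in all), and in the room air pair 0 and 3 became 3 and 0 with U6 and 2 and 0 with card medians. The limma calls for age, 0 up and 2 down, became 2 and 0 with U6 and with card medians. The cluster median of the room air pair, -1.25, became 1.40 with U6, -0.024 with mean centring and -0.11 with card medians. For adult hyperoxia against room air, mean centring gave 1 member 2-fold higher and a median of 0.29. With U6, miR-188-5p lay at 0.49 and miR-501-3p at 0.35 between the hyperoxia libraries, and at 0.92 and 1.40 between the room air libraries. The limma count for age fell to 1 member (miR-188-5p, lower) with mean centring, and was 3, with miR-501-3p added, at a Ct limit of 32 or with a variance trend. Over all assays the split of calls for age, 24 up and 128 down, was 38 and 161 with a trend, 99 and 77 with mean centring, 136 and 84 with card medians, 50 and 112 with snoRNA135 added and 196 and 71 with U6. The fitted age difference of miR-500 turned to 2.45 with U6, 0.23 with snoRNA135 added, 0.48 with mean centring and 1.04 with card medians, and with U6 those of miR-501-3p and miR-188-5p turned to 0.87 and 0.71. The oxygen fit of miR-188-5p, at -0.001, turned to 0.0803, 0.0933, 0.25 and 0.0595 with U6, snoRNA135 added, mean centring and card medians. The cause was not tested beyond the shift of all assays: the median of all assays between the room air libraries was -0.57 with snoRNA202, 1.46 with U6, 0.26 with mean centring and 0.40 with card medians. Members had a Ct of 19.1 to 27.6, and limits of 32 or 35 removed none.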
